A study of Mus musculus with 6 samples.

Results

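Type I interferon response genes are the genes that cells switch on when an interferon of the alpha or beta kind binds its receptor. They were followed here through 29 listed members, chosen by gene symbol: every probe set whose platform annotation gave exactly 1 symbol from the list was taken, which gave 42 of the 45037 probe sets tested and 27 of 18193 genes. Isg15 and Ifi44 had no such probe set. The samples were lymphatic endothelial cells (LECs), the lining cells of lymphatic vessels, each measured on 1 of 6 mouse Affymetrix arrays. The 3 tumour-associated LEC samples came from xenografts of the human line MDA-MB-435, which had been injected under the skin and were removed after 8 weeks. The 3 healthy LEC samples came from mammary skin of balb-c/nude mice, whose lack of a thymus leaves them short of mature T cells. The labels give the strain for the healthy samples only, and neither the age nor the number of the animals; the tumour samples stand for xenografts of 1 cell line. In both groups the vessels were found by a brief LYVE-1 stain, the cells were cut out by laser capture, and their RNA went through 1 round of Ribo-SPIA amplification. The labels call the arrays biological replicates without naming the animal behind each, so p-values measure the spread between these samples.

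Interferon alpha and beta bind a receptor of the chains IFNAR1 and IFNAR2, whose kinases JAK1 and TYK2 phosphorylate STAT proteins, STAT2 among them. STAT2 and IRF9 are part of a complex that binds a DNA element, the interferon-stimulated response element, in the promoters of target genes. The targets include sensors of viral RNA and DNA, transcription factors that amplify the response, and proteins that block viral replication. Interferon gamma uses another receptor and acts through a different element, and several members respond to both.

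Signal is given as log2 of the deposited intensity. An array's background was taken as the 95th percentile of its 27 bacterial control probe sets, which lay between 2.96 and 3.91 on the log2 scale. Of 9 measured lymphatic markers, 7 were above background on all arrays, as were 8 of 12 pan-endothelial markers. Relative to the healthy mean, the lymphatic markers averaged 0.87, 1.05 and 1.13 log2 units in tumour replicates 1, 2 and 3, against -0.80, 0.24 and 0.55 in healthy replicates 1, 2 and 3. The pan-endothelial markers averaged 1.29, 1.21 and 1.40 in the tumours, against -0.06 to 0.04 in healthy skin, and the part of either shift in the interferon values was not tested. Keratinocyte markers were also present, 9 of 13 above background on all arrays, and averaged 1.59, 2.14 and 3.05 log2 units below the healthy mean in tumour replicates 1, 2 and 3. These are bulk captures, in which fewer cells of a type and less RNA per cell cannot be told apart.

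Most interferon genes had a higher mean in tumour-associated LECs than in healthy LECs, but no member passed the test, and 1 tumour array carried much of the difference. At the probe set with the highest mean signal, which stands for a gene here, 22 of 27 members had a positive and 5 a negative log2 difference (tumour-associated minus healthy). Their median difference was 0.58, against 0.08 over all 18193 genes, of which 57.3% were positive. Limma called none of the 42 member probe sets at an adjusted p under 0.05, against 0.00444% (2 of 45037) of all probe sets, and the lowest adjusted p of a member was 0.438. At an unadjusted p under 0.05 there were 4 member probe sets higher in tumour-associated LECs and 0 lower, against 2.83% and 3.53% of all probe sets. These 4 belonged to 3 genes, namely Rsad2 with 2 probe sets, Oas1a and Trim30a. With 1 probe set per gene, 2 of 27 members were higher at that threshold (Rsad2 and Oas1a) and 0 lower, against 3.22% and 4.28% of all genes. In 3 of 27 members the groups did not overlap, with all 3 tumour values above all 3 healthy values, and in none was the order the opposite. Over all genes the corresponding shares were 6.58% and 5.36%. Without tumour replicate 2 the median difference of the members was 0.24, against 0.12 for all genes, and 18 of 27 were positive, against 59.2% of all genes.

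**Figure D1:**
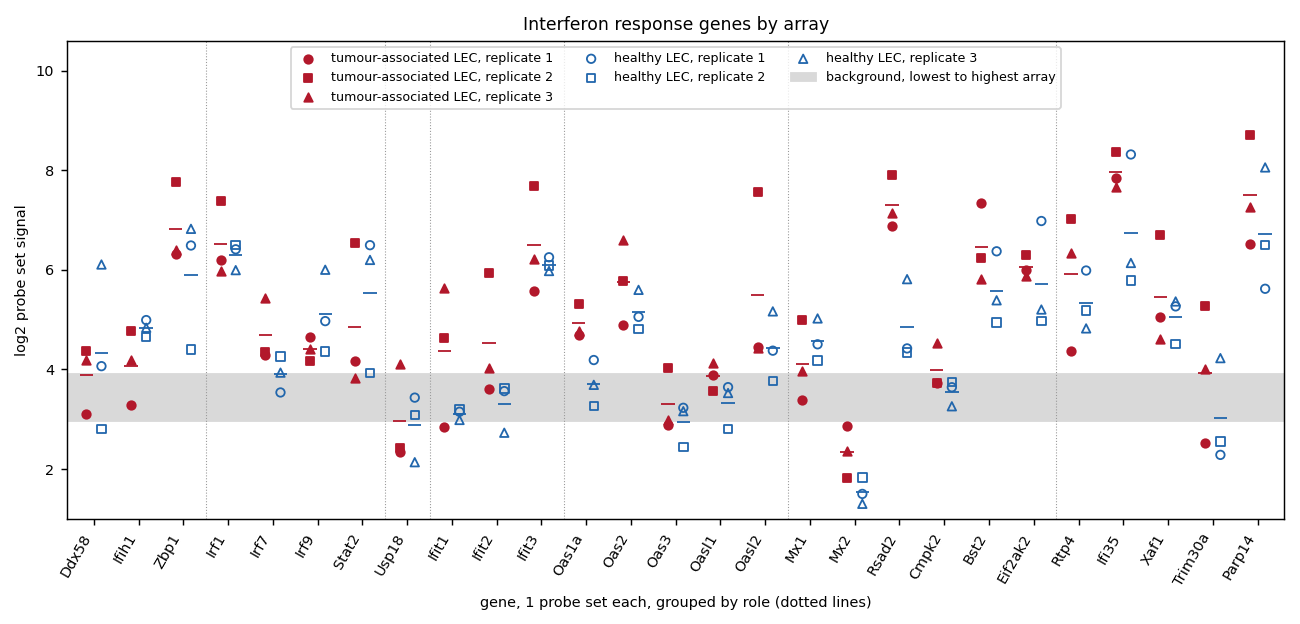
Log2 signal of the 27 interferon members, 1 probe set each, on the 3 tumour-associated arrays (filled red) and the 3 healthy arrays (open blue), with short lines for group means and a grey band for the background, 2.96 to 3.91. Rsad2, Oas1a and Irf7 are the 3 genes whose groups do not overlap, and many other genes lie near the band.

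Rsad2 and Oas1a, both antiviral effectors, were the members of smallest p. Rsad2 encodes viperin, an enzyme that makes a chain-terminating nucleotide, and at 1436058_at it had 6.87, 7.91 and 7.14 in tumour replicates 1, 2 and 3, against 4.42, 4.34 and 5.81 in healthy replicates 1, 2 and 3. Every tumour value lay above every healthy value, and healthy replicate 3 was the nearest to the tumours. The log2 difference was 2.45 with a standard error of 0.50, a 5.46-fold ratio (limma adjusted p = 0.438). It stayed between 2.15 and 2.93 over the alternative settings, with adjusted p between 0.163 and 0.739. Its other probe sets were dim. At 1421009_at no array of either group was above background (2.17, 3.38 and 3.23 in tumours, against 2.23, 1.94 and 1.70 in healthy skin). At 1421008_at tumour replicate 2 alone was, with 5.58 beside 2.50 and 2.68 in the other tumours and 2.24, 2.20 and 2.03 in healthy skin. That probe set gives a ratio of 1.18-fold with the healthy arrays set to their background. This ratio is no lower bound, since tumour replicates 1 and 3 were below their own background.

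Oas1a encodes an oligoadenylate synthetase, which makes the second messenger that activates RNase L. It had 4.68, 5.32 and 4.78 in tumour-associated LECs, against 4.19, 3.27 and 3.69 in healthy LECs. The groups did not overlap, with healthy replicate 1 nearest to the tumours, and only 2 of the 3 healthy arrays were above background. The difference was 1.21 with a standard error of 0.35 (limma adjusted p = 0.63). Over the alternatives it stayed between 0.99 and 1.45, with adjusted p between 0.245 and 0.948.

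The DNA letters in front of these 2 genes are shown because both hold the letters of the response element of this pathway. They come from RefSeq promoter windows (build GRCm38.p6), which run from 250 bases before to 50 bases after the transcript start. The 250 bases before the start are printed 5′ to 3′ on the gene's own strand, and capitals mark GAAANNGAAA or, on the other strand, TTTCNNTTTC, the core of the interferon-stimulated response element.
Rsad2 (chr12:26456453-26456702, minus strand): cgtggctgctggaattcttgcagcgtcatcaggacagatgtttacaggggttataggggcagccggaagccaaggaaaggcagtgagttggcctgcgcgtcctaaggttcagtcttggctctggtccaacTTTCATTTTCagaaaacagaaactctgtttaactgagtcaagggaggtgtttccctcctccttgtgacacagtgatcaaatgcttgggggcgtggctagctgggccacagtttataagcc
Oas1a (chr5:120907526-120907775, minus strand): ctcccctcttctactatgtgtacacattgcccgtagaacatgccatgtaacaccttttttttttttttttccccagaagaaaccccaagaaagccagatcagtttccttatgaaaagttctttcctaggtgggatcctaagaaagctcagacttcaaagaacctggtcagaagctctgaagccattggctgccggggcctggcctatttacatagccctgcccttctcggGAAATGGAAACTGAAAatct
Counted from the transcript start, the Rsad2 match lies at -120 to -111 and reads on the strand opposite to the gene. In Oas1a 2 overlapping matches cover positions -20 to -5.

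The windows of other members held the same core, printed here on the strand where it reads GAAANNGAAA with 14 bases on either side, so that their surroundings can be compared.
Ifit1 (chr19:34640771-34640827, minus strand): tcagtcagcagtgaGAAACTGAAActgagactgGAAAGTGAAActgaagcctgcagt
Ifit3 (chr19:34583393-34583430, minus strand): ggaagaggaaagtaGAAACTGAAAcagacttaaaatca
Oas3 (chr5:120777711-120777748, minus strand): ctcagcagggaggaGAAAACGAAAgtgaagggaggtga
Bst2 (chr8:71537573-71537616, minus strand): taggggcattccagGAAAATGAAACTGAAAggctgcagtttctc
Trim30a (chr7:104465206-104465243, plus strand): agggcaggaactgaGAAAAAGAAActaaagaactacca
Stat2 (chr10:128270262-128270299, minus strand): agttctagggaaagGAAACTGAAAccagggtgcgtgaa
Isg15 (chr4:156200861-156200910, minus strand): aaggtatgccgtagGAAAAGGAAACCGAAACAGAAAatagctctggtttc
Not every match is printed. The Bst2 stretch carries 2 overlapping copies and that of Isg15 has 3. In Ifih1, Ddx58 and Eif2ak2 the core lay after the transcript start, as did a further copy in a second window of Trim30a.

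Of the 29 listed members 22 had a promoter window, and 12 of these (54.5%) held the core on either strand, against 3.99% of all 27025 genes in the table (3.44% of 32851 windows). Members with and without these letters overlapped in their differences. The 11 measured members with the core had a median log2 difference of 0.38, ranging from -0.75 (Ifih1) to 2.45 (Rsad2). The 9 measured members without it had a median of 0.54, ranging from -0.70 (Irf9) to 1.22 (Ifit2). TTCNNNGAA, the element bound by STAT dimers after interferon gamma, reads the same on both strands. It occurred in the windows of 6 members (Irf1, Ifit2, Oas1a, Bst2, Eif2ak2 and Ifi35), against 9.55% of all genes. In Bst2 it overlaps the response element by 3 bases. A match is a description of the letters and not a bound site.

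**Figure D2:**
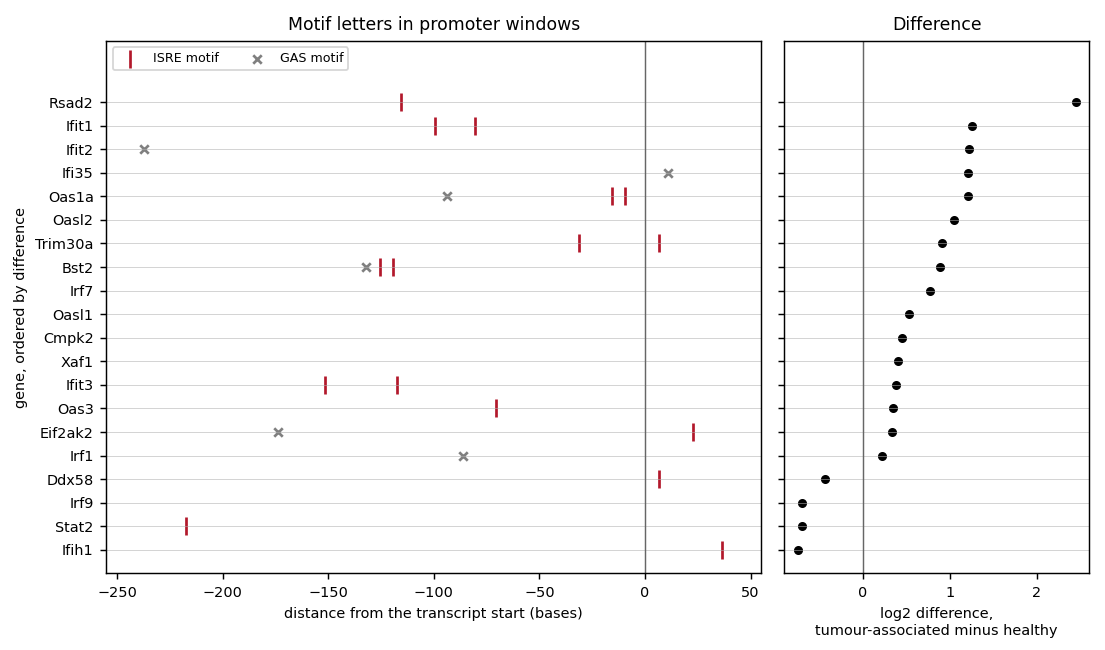
Left, positions of the interferon-stimulated response element core (ISRE, red bars) and of the STAT dimer element (GAS, grey crosses) in the promoter windows of the 20 measured members with a window, by distance from the transcript start in bases, with all windows of a gene on 1 row. Right, each gene's log2 difference, tumour-associated minus healthy; the cores occur from Rsad2 (2.45) at the top to Ifih1 (-0.75) at the bottom.

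Among the transcription factors of the response, only Irf7 had groups that did not overlap. Irf7, which amplifies interferon production, had 4.28, 4.36 and 5.43 in tumour-associated LECs, against 3.54, 4.26 and 3.93 in healthy LECs. The lowest tumour value and the highest healthy value were almost equal, and tumour replicate 3 stood above the rest. The difference was 0.78 with a standard error of 0.41 (limma adjusted p = 0.846), and 0.41 without tumour replicate 3. Irf9, the DNA-binding part of the interferon-activated complex, had 4.66, 4.16 and 4.42 in tumours, against 4.97, 4.36 and 6.0 in healthy skin. Its groups overlapped and its difference was negative, -0.70 with a standard error of 0.45 (limma adjusted p = 0.868). It was -0.25 without healthy replicate 3 and -1.07 without healthy replicate 2.

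Stat2, the partner of IRF9 in that complex, varied widely within both groups. It had 4.17, 6.54 and 3.83 in tumours, against 6.49, 3.93 and 6.20 in healthy skin, so that 1 tumour array sat with 2 healthy ones and 1 healthy array with 2 tumours. The difference was -0.70 with a standard error of 0.93 (limma adjusted p = 0.922). Without tumour replicate 2 it was -1.55, and without tumour replicate 3 it was -0.19. The second Stat2 probe set, 1450403_at, differed by -0.35 (limma adjusted p = 0.98) and did not repeat this grouping of arrays. There the values were 4.26, 5.87 and 4.06 in tumours, against 8.37, 2.64 and 4.22 in healthy skin. Irf1, which also responds to interferon gamma, had 6.19, 7.38 and 5.98 in tumours, against 6.41, 6.50 and 5.99 in healthy skin. Only tumour replicate 2 left the range of the other arrays. The difference was 0.22 (limma adjusted p = 0.948), and -0.21 without tumour replicate 2. Both measured parts of the activated complex, Stat2 and Irf9, thus had negative differences within their spread.

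The sensors of viral nucleic acid did not share a direction either. Ifih1, which encodes the RNA sensor MDA5, had 3.28, 4.77 and 4.18 in tumours, against 4.99, 4.65 and 4.84 in healthy skin. The healthy values were tight, 1 tumour value lay among them, and 2 lay below. The difference was -0.75 with a standard error of 0.42 (limma adjusted p = 0.859), and -0.35 without tumour replicate 1. Ddx58, which encodes the RNA sensor RIG-I, differed by -0.44, and by -0.03 at 1456890_at. At its probe set 1446457_at only tumour replicate 1 was above background. With the healthy arrays set to their background the ratio was 1.23-fold, which is no lower bound, since the other tumours lay below theirs. Zbp1, a sensor of Z-form nucleic acid, differed by 0.92 and by 0.52 at its second probe set, with healthy replicate 2 lowest in both (4.40 and 4.14).

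The IFIT family encodes proteins that bind foreign RNA and block its translation. Ifit1 had 2.85, 4.62 and 5.64 in tumours, against 3.15, 3.20 and 2.98 in healthy skin. Tumour replicates 2 and 3 were high, while tumour replicate 1 was below its background and below all healthy values. Of the healthy arrays only replicate 3 was above its background. The difference was 1.26 with a standard error of 0.67 (limma adjusted p = 0.848). It was 0.62 without tumour replicate 3 and 2.02 without tumour replicate 1.

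Ifit2 had 3.61, 5.93 and 4.02 in tumours, against 3.56, 3.61 and 2.73 in healthy skin. Tumour replicate 2 was far above the rest, and tumour replicate 1 was level with the highest healthy value. The difference was 1.22 with a standard error of 0.64 (limma adjusted p = 0.846), and 0.51 without tumour replicate 2. Ifit3 differed by 0.38, with 7.67 in tumour replicate 2 and 5.58 and 6.22 in the other tumours, against 6.25, 6.09 and 5.98 in healthy skin. All 3 IFIT genes had a larger spread among tumour arrays (SD 1.41, 1.24 and 1.07 for Ifit1, Ifit2 and Ifit3) than among healthy arrays (SD 0.11, 0.50 and 0.14). For Ifit1 and Ifit2 only 1 healthy array was above background, so their differences and their healthy spread rest on signal near background.

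All 5 genes of the oligoadenylate synthetase family had positive differences, with Oas1a the only one whose groups did not overlap. Oasl2, an oligoadenylate synthetase-like protein, differed by 1.05 through 1 array, since tumour replicate 2 had 7.57 beside 4.46 and 4.43 in the other tumours, against 4.38, 3.77 and 5.16 in healthy skin. Oas2 differed by 0.60, with tumour replicate 3 highest at 6.60. Oas3 and Oasl1 differed by 0.35 and 0.54, and both lay within or near the background range on most arrays. The limma adjusted p of these 4 genes lay between 0.868 and 0.913.

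Of the remaining effectors, all but Mx1 had positive differences at the probe set that stands for the gene, and none passed. Mx2, which encodes a dynamin-like antiviral GTPase, was not above background on any array, so that its difference of 0.80 between groups is a difference of background-level signals (limma adjusted p = 0.804). It had 2.86, 1.81 and 2.35 in tumours, against 1.50, 1.83 and 1.30 in healthy skin. Mx1, its neighbour, had 3.39, 4.99 and 3.97 in tumours, against 4.50, 4.18 and 5.02 in healthy skin, a difference of -0.45 (limma adjusted p = 0.902). Both MX genes thus overlapped between groups.

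Bst2, which encodes tetherin and holds budding virus at the cell surface, differed by 0.89 with tumour replicate 1 highest at 7.33. Eif2ak2, which encodes the RNA-activated kinase PKR, differed by 0.33, and by -0.11 and 0.41 at its other probe sets. One of these, 1440866_at, ranged from 2.35 in tumour replicate 3 to 7.22 in tumour replicate 2. Cmpk2, a nucleotide kinase encoded beside Rsad2, differed by 0.45 at a probe set near background, with tumour replicate 3 highest at 4.53.

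Of the other interferon-induced genes, all 5 measured ones had positive differences and none passed. Ifi35 had 7.85, 8.37 and 7.67 in tumours, against 8.32, 5.78 and 6.14 in healthy skin. Healthy replicate 1 lay among the tumour values, far above the other healthy arrays. The difference was 1.22 with a standard error of 0.67 (limma adjusted p = 0.857), and 2.00 without healthy replicate 1. The other Ifi35 probe sets differed by 0.59 and 0.04.

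Trim30a, a ubiquitin ligase of the TRIM family, had probe sets with different patterns. At 1451860_a_at, which stands for the gene, it differed by 0.92, with 2.52, 5.28 and 4.01 in tumours, against 2.28, 2.55 and 4.23 in healthy skin. At 1417961_a_at tumour replicates 1 and 2 had 4.28 and 4.15 and tumour replicate 3 had 1.92, against 1.25, 1.22 and 2.07 in healthy skin. The measured difference there was 1.94 (limma adjusted p = 0.713), but no healthy array was above background. With those arrays set to their background the ratio was 1.07-fold. That is no lower bound, since tumour replicate 3 was below its own background. Parp14, an ADP-ribosyltransferase, differed by 0.77, Rtp4, a chaperone of membrane receptors, by 0.58, and Xaf1, an inhibitor of the apoptosis blocker XIAP, by 0.41. In these 3 genes tumour replicate 2 was the highest of the 6 arrays. Usp18, the protease that removes ISG15 and dampens receptor signalling, was above background only in tumour replicate 3 (4.12), beside 2.34 and 2.43 in the other tumours and 3.43, 3.09 and 2.14 in healthy skin. Its measured difference was 0.08. With the healthy arrays set to their background the value was -0.39. That is no bound and its sign cannot be read as a decrease, since tumour replicates 1 and 2 were below their own background.

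Of the 11 members with more than 1 probe set, 9 had differences of the same sign at all of them. The exceptions were Ddx58 and Eif2ak2. Signal was above background on all 6 arrays for 13 of the 27 genes, and on none for Mx2.

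**Figure D3:**
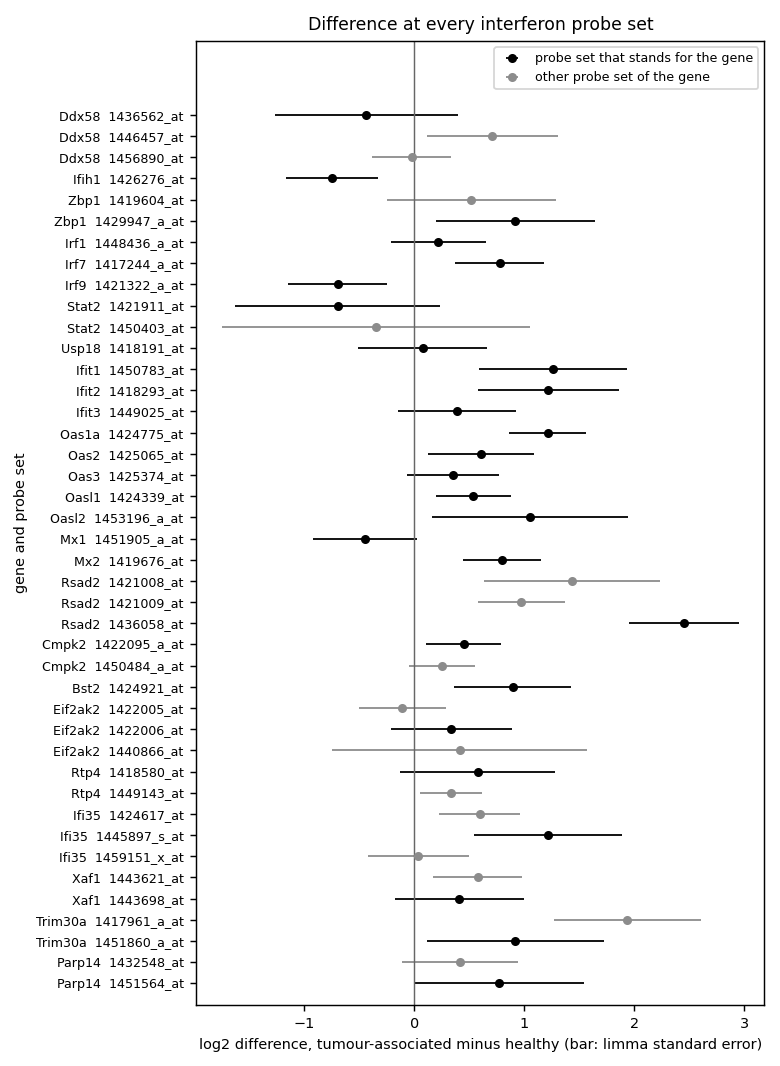
Log2 difference, tumour-associated minus healthy, at each of the 42 interferon probe sets, with limma's standard error as bars; black points stand for the gene and grey points are its other probe sets. The highest value is that of Rsad2 at 1436058_at (2.45), and 34 of the 42 differences are positive.

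The tumour arrays differed from each other in the members' signal. Among the 6 arrays tumour replicate 2 was the highest in 14 of 27 members, against 13.0% of all genes. It led in Rsad2, Oas1a, Oas3, Oasl2, Ifit2, Ifit3, Zbp1, Irf1, Stat2, Rtp4, Ifi35, Xaf1, Trim30a and Parp14. Tumour replicate 3 was the highest in 6, namely Ifit1, Irf7, Oas2, Oasl1, Cmpk2 and Usp18, against 24.4% of all genes. Tumour replicate 1 was the highest in 2, and was the lowest of the 3 tumours in 16 of 27, against 27.0% of all genes. Among healthy arrays, replicate 2 stood out at the low end, being the lowest of all 6 in 12 members, against 15.8% of all genes.

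Relative to the healthy mean, the members averaged 0.00, 1.10 and 0.49 log2 units in tumour replicates 1, 2 and 3, against 0.19, -0.41 and 0.22 in healthy replicates 1, 2 and 3. Tumour replicate 1 thus lay within the healthy range, tumour replicate 3 above it, and tumour replicate 2 well above it. The spread was larger among tumours than among healthy arrays in 18 of 27 members, with a median SD of 0.79 in tumours and 0.50 in healthy skin. Over all genes the tumour SD was the larger in 44.8%, with medians of 0.42 and 0.47.

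**Figure D4:**
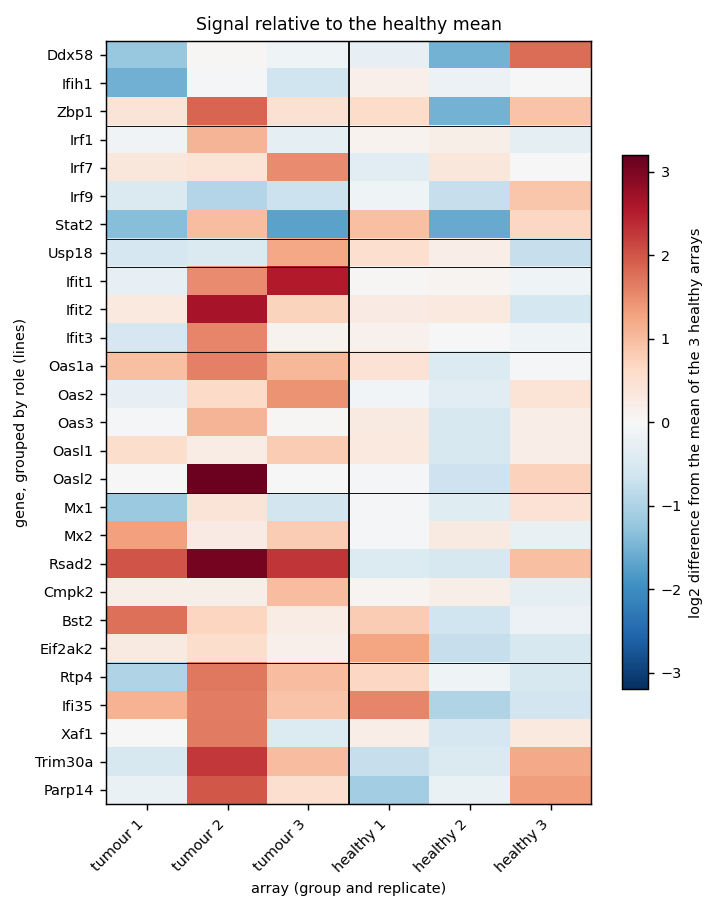
Log2 signal of each member on each array minus the mean of the 3 healthy arrays for that gene, with the 3 tumour-associated arrays left of the vertical line and genes grouped by role. The column of tumour replicate 2 is the reddest, with an average of 1.10, and that of tumour replicate 1 averages 0.00.

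Markers of other cells moved with the same array. The macrophage markers averaged 0.15, 2.15 and 0.30 log2 units above the healthy mean in tumour replicates 1, 2 and 3, and their summed intensity was 1621, 7738 and 1898, against 1619 to 1648 in healthy skin. Of these 16 markers 12 were the highest in tumour replicate 2, among them Csf1r, the macrophage growth factor receptor (11.24, beside 9.29 and 9.52 in the other tumours), and C1qb, a complement subunit (10.83, beside 7.60 and 9.10). Itgam alone was above background on no array. The part of these cells in the interferon values was not tested. Tumour replicate 3, where Ifit1, Irf7 and Oas2 were highest, had the fibroblast markers lowest, 2.37 log2 units below the healthy mean. Markers of conventional dendritic cells also had their highest mean in tumour replicate 2. They averaged -0.84, 0.63 and -0.93 in tumour replicates 1, 2 and 3, against -0.38 to 0.40 in healthy skin. Of these 9 markers 7 had negative differences between groups, and Xcr1 and Cd209a were above background on no array. The brightest were H2-Ab1, Cd74 and Zbtb46. Markers of plasmacytoid dendritic cells, strong producers of interferon, lay between -0.10 and 0.20 in tumours, against -0.30 to 0.29 in healthy skin. The T and NK cell markers were also highest in tumour replicate 2. They averaged 0.01, 0.61 and 0.14 in tumour replicates 1, 2 and 3, against -0.35 to 0.30 in healthy skin. Neutrophil markers were not, with 0.35, 0.12 and 0.33 in tumour replicates 1, 2 and 3, against -0.41 to 0.34 in healthy skin.

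**Figure D5:**
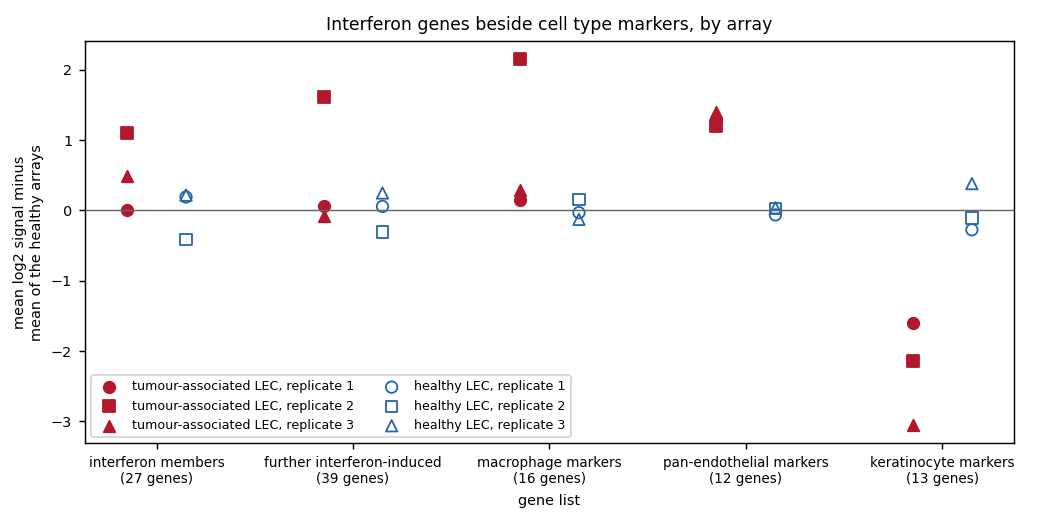
Mean log2 signal of 5 gene lists on each array minus the mean of the healthy arrays, with tumour-associated arrays in filled red and healthy arrays in open blue. In tumour replicate 2 the interferon members (1.10), the further interferon-induced genes (1.61) and the macrophage markers (2.15) are all at their highest, while the pan-endothelial markers are alike in the 3 tumours (1.21 to 1.40).

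Upstream of the members, most ligands gave no signal above background. Of 11 listed interferon genes 7 were measured, and Ifnb1, Ifna2, Ifna4 and Ifng were above background on no array. Ifnb1 had 2.43, 2.27 and 3.51 in tumours, against 2.63, 2.32 and 2.07 in healthy skin. Ifna1 and Ifna5 were above background on all 6 arrays, each through a probe set that may bind related transcripts, and differed by 0.52 and -0.23. Ifna11 was above background only in tumour replicate 1 (4.77, beside 1.89 and 2.02 in the other tumours), and on no healthy array.

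At its brighter probe set the receptor chain Ifnar1 had 7.56, 6.32 and 7.74 in tumours, against 6.56, 5.92 and 5.80 in healthy skin. Tumour replicate 2 had the lowest value of the tumours there and lay within the healthy range. The difference was 1.11 with a standard error of 0.46 (limma adjusted p = 0.776). The second Ifnar1 probe set had another order of tumours, with tumour replicate 2 highest at 6.72 beside 4.98 and 5.42, and differed by 0.92. Ifnar2 differed by 0.90, and by 0.30 and -1.06 at its other probe sets. Ifngr2, a chain of the interferon gamma receptor, differed by 1.20 and by 0.08 at its second probe set, while Il10rb, which serves interferon lambda and interleukin receptors, differed by -1.17 and by 0.27 at its second probe set. The receptor kinase Jak1 differed by 1.82, against -0.90 for Tyk2 and -0.80 for Jak2, and none of the 3 passed (limma adjusted p = 0.769, 0.86 and 0.872). The other Jak1 probe sets differed by -0.05 and -0.15.

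Genes that lead to interferon production were balanced, with 7 of 15 positive and a median of -0.07. The kinase Tbk1 differed by -0.77 and by 0.05 at its second probe set. The adaptor Ticam1 differed by 0.49 and the transcription factor Irf5 by -0.88, with 0.52 at the second Irf5 probe set. Among negative regulators, Ptpn11, the phosphatase SHP2, had 5.67, 5.61 and 4.96 in tumours, against 6.67, 6.97 and 6.63 in healthy skin. The groups did not overlap, with a difference of -1.34 and a standard error of 0.31 (limma adjusted p = 0.517), while its other probe sets differed by 0.45 and -0.12. Socs3, an inhibitor of cytokine receptors, had 5.27, 6.38 and 5.51 in tumours, against 4.93, 3.92 and 4.51 in healthy skin (difference 1.27, limma adjusted p = 0.695), again without overlap. Of its other probe sets, 1456212_x_at differed by 1.03 with overlapping groups. At 1416576_at no healthy array was above background, and the tumours were higher by at least 1.81 log2 units (limma adjusted p = 0.441). Adar, an RNA-editing enzyme, differed by -1.06, and by 0.17 and -0.03 at its other probe sets.

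Of 46 further interferon-induced genes 39 were measured, 30 with positive differences and a median of 0.33, and none passed. Tumour replicate 2 was the highest array in 26 of them, and their mean lay 0.07, 1.61 and -0.07 log2 units from the healthy mean in tumour replicates 1, 2 and 3. Tumour replicate 3, which was above the healthy arrays in the members, was not so here. The lowest p belonged to Psmb8, an immunoproteasome subunit (1.75), Sp110, a nuclear body protein (1.08), and Gbp3, a guanylate-binding protein (1.73), whose groups did not overlap (limma adjusted p between 0.682 and 0.713). In the 39 genes the groups did not overlap in 6 with higher and 1 with lower tumour values, against 6.58% and 5.36% of all genes. Psmb8 and Sp110 have other probe sets, whose values are not given here. Over all 78 measured pathway genes, 8 had an unadjusted p under 0.05 with higher and 1 with lower values in tumour-associated LECs, against 3.22% and 4.28% of all genes.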

How the data were processed

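Per the submitters' processing notes the values were made with RMA, which corrects background, normalizes probes across arrays and summarises them per probe set; its version was not given there. The deposited table holds intensity on a linear scale for 45101 probe sets. They were taken to log2 with no pseudocount and no further scaling, and 64 control probe sets were left out. The comparison used limma 3.58.1 under R 4.3.3, without a block and two-sided (lmFit, then eBayes), with Benjamini-Hochberg adjustment over all 45037 probe sets. The fit was tested on simulated data. Symbols came from the platform annotation (34945 probe sets with 1 symbol, 932 with several, 9160 with none). The members and gene lists were chosen with earlier results of these data known. Values on all arrays are given for members whose groups do not overlap, the 8 members of smallest p, and Irf1, Irf7, Irf9 and Stat2; other arrays' values are quoted where 1 array stands apart. Pathway genes named are Ifnb1, Ifnar1, Ifnar2 and up to 3 of smallest p per list. Arrays carry no read depth, and 3 arrays per group limit the precision. Alternatives were quantile normalization, centring on array medians, a filter requiring signal above background on at least 3 arrays, a block for the replicate number, a trended and robust eBayes, weighting of arrays, leaving out each array in turn, and other choices of probe set. Some items are not reported here.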

Additional observations from a re-analysis of the deposited data

How the results depend on the processing

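No member probe set was called under the other scalings, the filter, the block, the eBayes options, array weights or with an array left out. The lowest adjusted p under these was 0.163 among 11 members (Irf1, Irf7, Irf9, Stat2, Ifih1, Ifit1, Ifit2, Oas1a, Mx2, Rsad2 and Ifi35). Other choices of probe set were run only for the median difference (0.54 and 0.58) and the count without overlap (3 in both). The number of all probe sets called was 2 as reported, 0 after centring, 21 with the filter on dim probe sets, 1 with trend and robust options, 22 with array weights, and 0 to 23 with an array left out (23 without tumour replicate 2, and 0 without tumour replicate 1, tumour replicate 3 or any healthy replicate). With the replicate block it was 0, and 4 member probe sets still had an unadjusted p under 0.05. Same-numbered arrays had correlations of 0.04, 0.10 and -0.01 between their deviations from the group means, and not every array correlated best with its own number. With 3 arrays per group these values cannot decide whether the numbers pair the arrays. Member probe sets with an unadjusted p under 0.05 numbered 4, against 2 with the filter and 8 with array weights. Members whose groups did not overlap numbered 3, and 3 to 8 with an array left out, where fewer arrays are compared. The shares over all probe sets or genes under these settings are not given, so these changes in count cannot be read as particular to the members. The median difference of 0.58 lay between 0.24 (without tumour replicate 2) and 0.64 (without healthy replicate 3). Irf1 changed sign with array weights (-0.0020) and ranged from -0.21 to 0.49 with an array left out; the other 10 of the 11 members kept their sign. The cause of these changes was not tested. Many members lie near background, which limits what these arrays can show of them.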

Other observations

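The annotation gives 2 probe sets to a member together with another gene, and neither could be counted for the member. The one shared by Isg15 and Gm9706, 1431591_s_at, had 5.44, 5.69 and 4.58 in tumour-associated LECs, against 4.50, 3.00 and 4.37 in healthy LECs, so the groups did not overlap (log2 difference 1.28, limma adjusted p = 0.76). The one shared by Trim30d and Trim30a, 1456494_a_at, had 4.20, 4.78 and 4.61 in tumour-associated LECs, against 3.30, 2.32 and 3.85 in healthy LECs, again without overlap (log2 difference 1.37, limma adjusted p = 0.674). In both, tumour replicate 2 was the highest of the 6 arrays and healthy replicate 2 the lowest.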
